A study of Mus musculus with 8 samples.

Results

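The 10 genes described here encode the core transcription factors of pluripotency, Pou5f1, Nanog and Sox2, and the factors that support the naive state beside them, Klf2, Klf4, Esrrb, Zfp42, Tfcp2l1, Prdm14 and Tbx3. They were taken by symbol from the 23234 genes listed in each library, and all 10 were found. All 10 also had at least 1 FPKM (fragments per kilobase of gene, scaled to the mapped fragments of the library) in at least 2 libraries, the filter that left 13549 genes for testing. RNA was sequenced from pooled whole mouse embryos in 8 libraries, 2 in each of 4 groups set by stage and by the Tet3 genotype of the oocyte. The groups were Tet3-null blastocysts, wild-type blastocysts, Tet3-null 2-cell embryos and wild-type 2-cell embryos. Tet3-null oocytes came from superovulated females carrying Zp3-Cre, a transgene active in growing oocytes, with a floxed and a deleted Tet3 allele (f/-), and wild-type oocytes came from superovulated f/f females. The labels do not say whether the f/f females carried Cre. All oocytes were fertilized in vitro in HTF medium with CAST/EiJ sperm and the zygotes were cultured in KSOM. Every embryo therefore also received a paternal Tet3 allele, and Tet3-null names the oocyte. A library held 10 embryos taken 30 h after fertilization at the 2-cell stage, or 7 embryos taken at 96 h at the blastocyst stage. Nothing in the labels ties the replicate libraries to different females or different collections, and the p-values therefore reflect library-to-library spread that may be technical.

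Pou5f1 (Oct4), a POU-domain protein, and Sox2, an HMG-box protein, bind side by side on composite DNA elements, and the homeodomain protein Nanog acts at many of the same enhancers. In the blastocyst the core factors come to mark the inner cell mass and epiblast, whereas the outer trophectoderm and the primitive endoderm take up other programmes. In mouse embryonic stem cells Klf2, Klf4, Esrrb, Tfcp2l1 and Tbx3 sustain self-renewal downstream of LIF, Wnt or MEK inhibition. Prdm14 represses differentiation genes and de novo DNA methylation there, and Zfp42 (Rex1) is a widely used marker of the naive state. Tet3 oxidizes 5-methylcytosine in the zygote.

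Between 10607 and 11660 genes per library reached 1 FPKM, and read totals are unknown. Replicates correlated at 0.943 to 0.982 (Pearson, across genes within a group, on the log2(FPKM + 1) scale). Tet3-null 2-cell embryos had the widest replicate differences, with a median ratio of 1.42 between the libraries against 1.23 in wild-type 2-cell embryos, 1.15 in Tet3-null blastocysts and 1.16 in wild-type blastocysts. Tet3 itself had 3.29 and 4.41 FPKM in Tet3-null 2-cell embryos, against 10.8 and 7.54 FPKM in wild-type 2-cell embryos. Its level did not overlap between the genotypes, but the difference missed the threshold (log2 change -1.06, SE 0.25, adjusted p = 0.0690, limma with Benjamini-Hochberg adjustment over all 13549 genes). In blastocysts Tet3 had 0.519 and 0.412 FPKM in Tet3-null embryos and 0.957 and 0.459 FPKM in wild-type embryos. Which exons the deletion removes is not given in the sources used here, so this gene-level value is a limited check of the labels.

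The promoters of the factors differ in sequence, and the windows of 4 factors whose levels are contrasted below are shown with that of Klf4. Each is the first window listed for the gene in the table used, the 250 bases before an annotated start, read 5′ to 3′ on the strand of the gene from RefSeq on build GRCm38.p6. The printed Nanog and Zfp42 windows, and that of Sox2, did not pass a check against transcripts of the gene. Their starts, and positions counted from them, are uncertain to that extent. The second Nanog window, described below, passed. The levels were made by the authors on another build. Capitals mark matches on either strand to the octamer motif bound by Pou5f1 (ATGCAAA), the Sox motif (ACAATG), or the GC-box-like Klf motif (GGGNGTG). No other letters are capital. Nanog is at chr6:122707239-122707488 on the plus strand, Zfp42 at chr8:43307010-43307259 on the minus strand, Pou5f1 at chr17:35505782-35506031 on the plus strand, Tfcp2l1 at chr1:118627695-118627944 on the plus strand and Klf4 at chr4:55532476-55532725 on the minus strand.
Nanog: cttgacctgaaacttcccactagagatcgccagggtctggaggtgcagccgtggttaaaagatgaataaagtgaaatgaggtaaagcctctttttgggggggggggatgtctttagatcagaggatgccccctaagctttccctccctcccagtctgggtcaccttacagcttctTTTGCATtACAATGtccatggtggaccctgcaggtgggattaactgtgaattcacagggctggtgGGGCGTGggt
Zfp42: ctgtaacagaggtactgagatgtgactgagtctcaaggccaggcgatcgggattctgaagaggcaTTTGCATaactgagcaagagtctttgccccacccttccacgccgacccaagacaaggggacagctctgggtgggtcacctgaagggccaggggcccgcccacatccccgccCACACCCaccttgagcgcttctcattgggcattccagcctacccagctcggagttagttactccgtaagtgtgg
Pou5f1: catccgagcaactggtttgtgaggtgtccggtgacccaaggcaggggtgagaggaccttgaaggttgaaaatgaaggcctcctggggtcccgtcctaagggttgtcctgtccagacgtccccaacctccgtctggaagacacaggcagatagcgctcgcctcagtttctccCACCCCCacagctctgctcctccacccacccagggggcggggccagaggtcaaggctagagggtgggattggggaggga
Tfcp2l1: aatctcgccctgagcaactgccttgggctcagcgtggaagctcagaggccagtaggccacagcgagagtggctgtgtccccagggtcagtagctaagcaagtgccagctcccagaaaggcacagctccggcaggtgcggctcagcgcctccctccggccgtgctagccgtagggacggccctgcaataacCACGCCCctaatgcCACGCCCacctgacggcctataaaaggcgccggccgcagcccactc
Klf4: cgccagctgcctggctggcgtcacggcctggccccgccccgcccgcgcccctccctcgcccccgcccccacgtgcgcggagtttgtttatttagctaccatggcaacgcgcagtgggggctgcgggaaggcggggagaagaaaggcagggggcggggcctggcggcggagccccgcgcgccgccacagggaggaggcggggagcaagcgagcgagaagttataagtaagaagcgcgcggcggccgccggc
The Nanog window held an octamer match, read on the other strand, at bases 75 to 69 before the start and a Sox match at bases 67 to 62, with a single base between them, and a Klf match at bases 10 to 4. The Zfp42 window held an octamer match at bases 185 to 179 before the start and a Klf match at bases 74 to 68. Tfcp2l1 had Klf matches at bases 60 to 54 and 46 to 40, and the Pou5f1 window had a Klf match at bases 79 to 73. Pou5f1, Nanog and Esrrb each have a second listed window, which is not printed. That of Pou5f1 had a Sox match at bases 158 to 153 and no Klf match. That of Nanog overlaps the first and held the same octamer and Sox letters, at bases 151 to 145 and 143 to 138 before its own start. The first Esrrb window had a Klf match at bases 221 to 215 and the second had none. The Klf4 window held none of these 3 motifs. An octamer match was present in 4.12% of the 32851 windows of this length in the table, a Sox match in 10.7% and a Klf match in 26.1%. The Esrrb motif (AAGGTCA), present in 4.08% of all windows, was in none of the 11 windows of the 8 factors that have one. Sox2, whose window is not printed, had an octamer match at bases 99 to 93. CpG dinucleotides numbered 32 in the Klf4 window, 29 in that of Klf2 and 27 in that of Sox2, against 16 in Tfcp2l1, 9 in Zfp42, 8 in Pou5f1, 6 in Esrrb and 3 in Nanog, each in the first window. The second windows of Pou5f1, Esrrb and Nanog held 6, 3 and 2. The median over all windows was 6. These matches and counts describe the letters of the windows only, and binding and methylation were not measured in these libraries.

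The factors spanned a wide range of levels, and the order changed with stage. In blastocysts Zfp42 was the most abundant of them, at 208 ± 0.46 FPKM in Tet3-null and 229 ± 0.497 FPKM in wild-type embryos (SD, n = 2 each, as for all means here). Nanog came next, then Pou5f1, Tfcp2l1 and Tbx3, and these 5 did not overlap with each other in either genotype. In wild-type blastocysts Klf4 and Klf2 followed, and Esrrb, Sox2 and Prdm14 lay at 1.19 to 3.93 FPKM. There Sox2 overlapped with Esrrb and with Prdm14, and Esrrb lay narrowly above Prdm14. In Tet3-null blastocysts Klf4 and Klf2 overlapped, as did Klf2 and Sox2, and Sox2 overlapped with Esrrb and Prdm14. In 2-cell embryos Nanog was far above the rest and made up 58.7% of the summed FPKM of the 10 factors in Tet3-null and 48.5% in wild-type embryos. Its place among all tested genes was the 95.4th percentile in Tet3-null and the 94.9th in wild-type 2-cell embryos. Klf4 and Zfp42 stood behind it, in that order in Tet3-null 2-cell embryos, and with overlapping values in wild-type ones. Pou5f1 overlapped with Tbx3 in Tet3-null 2-cell embryos, whereas in wild-type 2-cell embryos Tbx3 overlapped with Klf2 and Pou5f1 lay below both. Sox2, Tfcp2l1, Prdm14 and Esrrb were the 4 lowest in both genotypes at this stage, at 0.605 to 5.45 FPKM. Summed over the 10 factors, the level was 559 and 572 FPKM in Tet3-null blastocysts and 572 and 549 FPKM in wild-type blastocysts. In 2-cell embryos the sums were 260 and 282 FPKM in Tet3-null and 295 and 293 FPKM in wild-type embryos. The total FPKM of a library also differed by stage, at 600494.8 to 634816.5 in 2-cell and 924555.6 to 956335.4 in blastocyst libraries. The factors' sums were not divided by these totals, so their difference between stages includes this difference of scale.

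**Figure D1:**
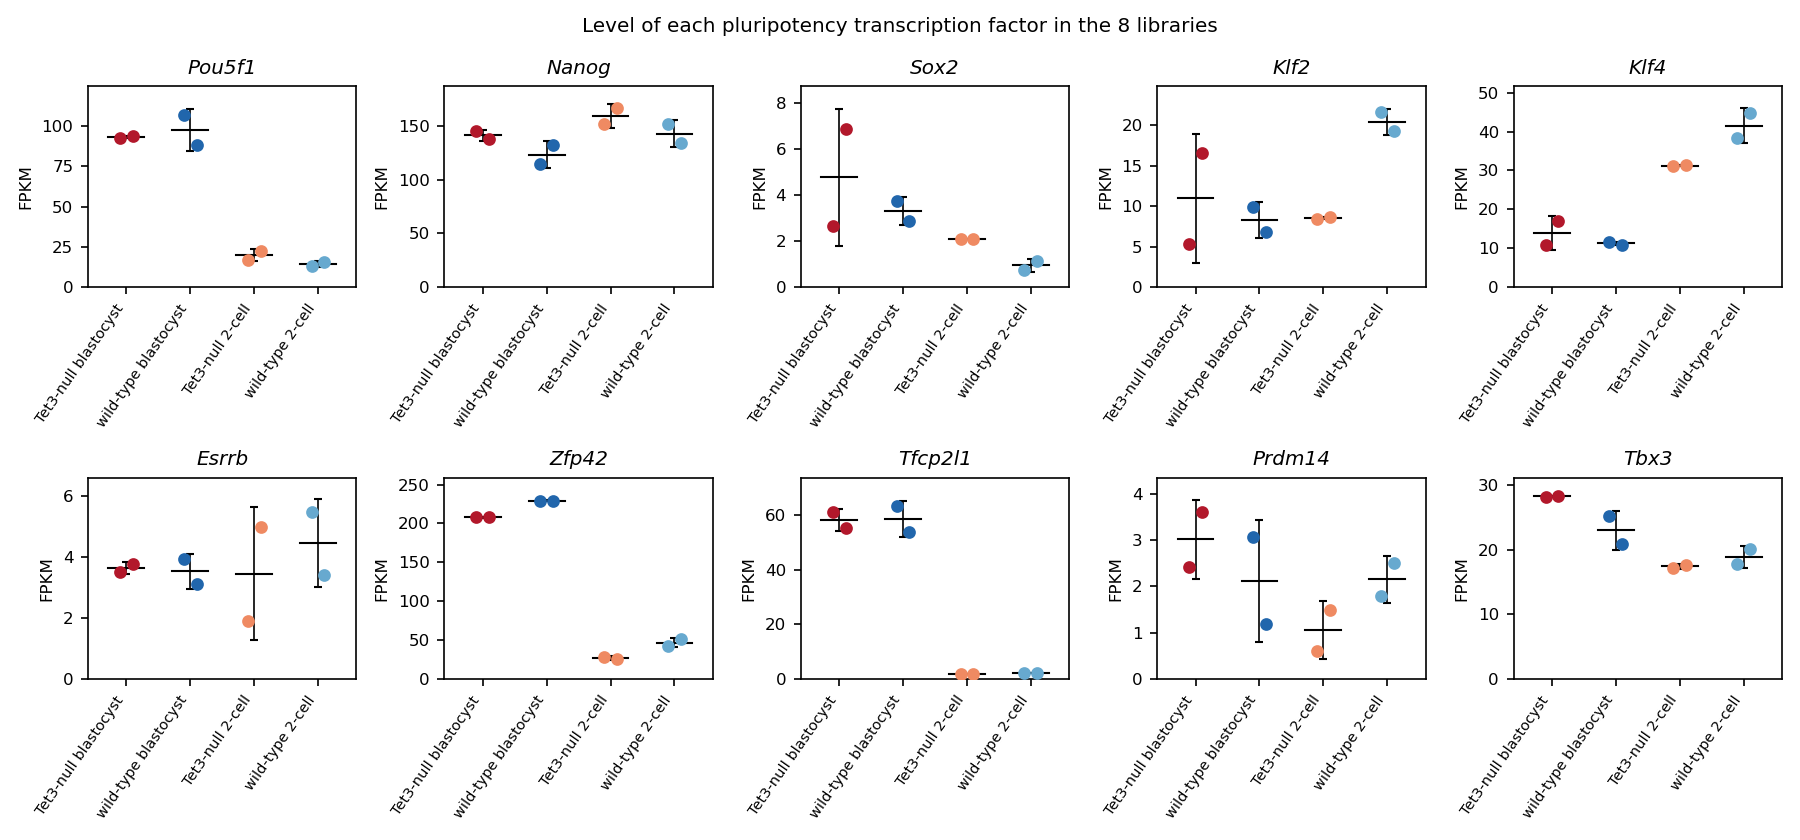
FPKM of each of the 10 factors (vertical axes, linear, from 0) in Tet3-null blastocysts, wild-type blastocysts, Tet3-null 2-cell and wild-type 2-cell embryos; points are libraries, horizontal lines are means and bars are SD of 2 libraries. Pou5f1, Zfp42 and Tfcp2l1 are high in all 4 blastocyst libraries, Klf4 is high in all 4 2-cell libraries, and Nanog lies between 114 and 167 FPKM in every library.

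From the 2-cell stage to the blastocyst the factors did not move as a block. Pou5f1, Zfp42 and Tfcp2l1 rose in both genotypes, Klf4 fell in both, and Nanog and Esrrb passed the test in neither. Of the 10 factors 6 passed in Tet3-null embryos, 5 higher and 1 lower, where 74.0% of all genes tested did (38.9% higher and 35.1% lower). In wild-type embryos 6 passed as well, 4 higher and 2 lower, where 74.3% of all genes did (35.8% higher and 38.4% lower). The factors' share is thus near the background. Their median log2 change was 0.74 in Tet3-null and 0.10 in wild-type embryos, beside 0.09 and -0.08 for all genes tested. All tests are from the same limma fit on log2(FPKM + 1) over the 8 libraries, with Benjamini-Hochberg adjustment over all genes tested.

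Among the core factors, Pou5f1 had 92.7 and 93.9 FPKM in Tet3-null blastocysts, 107 and 88.3 FPKM in wild-type blastocysts, 17.1 and 22.4 FPKM in Tet3-null 2-cell embryos and 13.0 and 15.5 FPKM in wild-type 2-cell embryos. Every blastocyst library lay above every 2-cell library. The ratio of mean FPKM, blastocyst over 2-cell, was 4.73 in Tet3-null embryos (log2 change 2.2, SE 0.19, adjusted p = 3.48e-05, limma) and 6.84 in wild-type embryos (2.69, SE 0.19, adjusted p = 1.51e-05, limma). Near-identical Pou5f1 and Zfp42 pseudogenes exist in the mouse genome, and how reads shared with them were counted is not given in the sources used here, so the levels of both genes are uncertain to that extent.

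Nanog had 145 and 138 FPKM in Tet3-null blastocysts, 114 and 132 FPKM in wild-type blastocysts, 151 and 167 FPKM in Tet3-null 2-cell embryos and 152 and 134 FPKM in wild-type 2-cell embryos. It was already near its blastocyst level at the 2-cell stage. Blastocysts lay below 2-cell embryos in each genotype without overlap, by a log2 change of -0.17 in Tet3-null embryos (95% interval -0.50 to 0.16, adjusted p = 0.298, limma) and -0.21 in wild-type embryos (-0.54 to 0.12, adjusted p = 0.203, limma). This depended on scaling. Under quantile normalization the log2 change was -0.63 in Tet3-null and -0.61 in wild-type embryos and passed the test in both, and after rescaling each library to the same total it was -0.75 in Tet3-null and -0.82 in wild-type embryos and again passed. A listed Nanog pseudogene, Nanogpd, had 19.2 and 20.4 FPKM in Tet3-null blastocysts and 15.1 and 17.8 FPKM in wild-type blastocysts, against at most 0.0773 FPKM in any 2-cell library. With Nanogpd added to Nanog, a setting chosen after the values were seen, the log2 change became 0.02 in Tet3-null embryos and -0.03 in wild-type embryos. Whether reads of Nanog were assigned to Nanogpd was not tested.

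Sox2 had 2.68 and 6.89 FPKM in Tet3-null blastocysts, 3.75 and 2.89 FPKM in wild-type blastocysts, 2.09 and 2.09 FPKM in Tet3-null 2-cell embryos and 0.752 and 1.15 FPKM in wild-type 2-cell embryos. It was thus low at both stages and lowest in wild-type 2-cell embryos. Blastocysts were higher in wild-type embryos, by a ratio of 3.49 (log2 change 1.15, SE 0.35, adjusted p = 0.0196, limma). In Tet3-null embryos the log2 change of 0.80 missed the threshold (95% interval -0.02 to 1.63, adjusted p = 0.0713, limma). The wild-type call was lost without wild-type 2-cell replicate 1 (adjusted p = 0.0984), without wild-type blastocyst replicate 1 (0.103), without wild-type blastocyst replicate 2 (0.0503) and after rescaling to the same total (0.0686). In Tet3-null embryos a call appeared without Tet3-null blastocyst replicate 1 (log2 change 1.35, adjusted p = 0.00561), and the change was 0.25 without replicate 2. Sox2 lies within the transcribed region of Sox2ot, and whether reads of either gene were counted for the other was not tested. Sox2ot had 0.536 and 0.655 FPKM in Tet3-null blastocysts, 0.771 and 0.573 FPKM in wild-type blastocysts, and 0.840 to 1.16 FPKM in the 2-cell libraries.

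Of the Krüppel-like factors, Klf4 fell in both genotypes. It had 10.9 and 17.0 FPKM in Tet3-null blastocysts, 11.6 and 10.9 FPKM in wild-type blastocysts, 31.2 and 31.4 FPKM in Tet3-null 2-cell embryos and 38.3 and 44.7 FPKM in wild-type 2-cell embryos. All blastocyst libraries lay below all 2-cell libraries. Klf4 fell to a mean of 13.9 ± 4.3 FPKM in Tet3-null blastocysts, against 31.3 ± 0.113 FPKM in Tet3-null 2-cell embryos (log2 change -1.14, SE 0.22, adjusted p = 0.00214, limma). It fell to 11.3 ± 0.474 FPKM in wild-type blastocysts, against 41.5 ± 4.53 FPKM in wild-type 2-cell embryos (-1.79, SE 0.22, adjusted p = 0.000223, limma). The fall was called in both genotypes under all 15 alternatives computed, 8 of which each left out a library.

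Klf2 had 5.34 and 16.6 FPKM in Tet3-null blastocysts, 9.89 and 6.76 FPKM in wild-type blastocysts, 8.47 and 8.67 FPKM in Tet3-null 2-cell embryos and 21.6 and 19.3 FPKM in wild-type 2-cell embryos. The wild-type 2-cell libraries were the highest of all, and Tet3-null blastocysts spread by a ratio of 3.11. In wild-type embryos Klf2 was lower in blastocysts (log2 change -1.22, SE 0.44, adjusted p = 0.0376, limma). This call was lost without any of the 4 wild-type libraries (adjusted p = 0.0644 to 0.177), without either Tet3-null 2-cell library (0.0524 without replicate 1 and 0.0525 without replicate 2), and with no filter on low values (0.0819). In Tet3-null embryos the log2 change was 0.14 (95% interval -0.89 to 1.18, adjusted p = 0.779, limma), and it was 0.88 and called without Tet3-null blastocyst replicate 1 (adjusted p = 0.0299) and -0.59 without Tet3-null blastocyst replicate 2.

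Among the other naive factors, Zfp42 had 208 and 208 FPKM in Tet3-null blastocysts, 230 and 229 FPKM in wild-type blastocysts, 28.1 and 24.8 FPKM in Tet3-null 2-cell embryos and 42.3 and 50.8 FPKM in wild-type 2-cell embryos. Blastocysts stood far above 2-cell embryos in both genotypes. The ratio, blastocyst over 2-cell, was 7.86 in Tet3-null embryos (log2 change 2.93, SE 0.14, adjusted p = 3.14e-06, limma) and 4.93 in wild-type embryos (2.28, SE 0.14, adjusted p = 1.00e-05, limma).

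Tfcp2l1, a CP2-family factor, had the largest stage change of the 10. It had 61.2 and 55.4 FPKM in Tet3-null blastocysts, 63.3 and 54.0 FPKM in wild-type blastocysts, 1.66 and 1.70 FPKM in Tet3-null 2-cell embryos and 2.1 and 2.22 FPKM in wild-type 2-cell embryos. The ratio, blastocyst over 2-cell, was 34.6 in Tet3-null embryos (log2 change 4.46, SE 0.16, adjusted p = 9.57e-07, limma) and 27.2 in wild-type embryos (4.24, SE 0.16, adjusted p = 1.32e-06, limma). As a percentile among all genes tested, its level stood at 87.1 in Tet3-null blastocysts and 87.0 in wild-type blastocysts, and at 28.4 in Tet3-null 2-cell and 29.0 in wild-type 2-cell embryos.

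Tbx3, a T-box factor, had 28.2 and 28.3 FPKM in Tet3-null blastocysts, 25.2 and 20.9 FPKM in wild-type blastocysts, 17.2 and 17.7 FPKM in Tet3-null 2-cell embryos and 17.7 and 20.1 FPKM in wild-type 2-cell embryos. All blastocyst libraries were above all 2-cell libraries, by a narrow margin in wild-type embryos. Tbx3 rose in Tet3-null embryos (log2 change 0.67, SE 0.16, adjusted p = 0.00608, limma), and in wild-type embryos the change was 0.27 (95% interval -0.10 to 0.64, adjusted p = 0.155, limma). Rescaling each library to the same total, which takes the median of all genes to -0.37 in Tet3-null and -0.59 in wild-type embryos, ended the first call (0.11, adjusted p = 0.555) and turned the second value to -0.32.

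Prdm14 had 2.42 and 3.61 FPKM in Tet3-null blastocysts, 3.06 and 1.19 FPKM in wild-type blastocysts, 0.605 and 1.5 FPKM in Tet3-null 2-cell embryos and 1.79 and 2.51 FPKM in wild-type 2-cell embryos. It was the factor with the lowest mean in both blastocyst groups, and its replicates differed by ratios of 1.40 to 2.57. Prdm14 was higher in Tet3-null blastocysts than in Tet3-null 2-cell embryos (log2 change 0.99, SE 0.36, adjusted p = 0.0394, limma). The call was lost in 4 of 7 other settings and in 5 of 8 fits that left out a library: Tet3-null 2-cell replicate 1 (0.67, adjusted p = 0.181), either wild-type 2-cell library (0.0581 without replicate 1 and 0.0580 without replicate 2), Tet3-null blastocyst replicate 1 (0.0606) or Tet3-null blastocyst replicate 2 (0.186). In wild-type embryos the log2 change was -0.07 (95% interval -0.92 to 0.78, adjusted p = 0.868, limma).

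Esrrb, an orphan nuclear receptor, had 3.49 and 3.77 FPKM in Tet3-null blastocysts, 3.93 and 3.10 FPKM in wild-type blastocysts, 1.91 and 4.99 FPKM in Tet3-null 2-cell embryos and 5.45 and 3.41 FPKM in wild-type 2-cell embryos. The 4 groups overlapped. The stage change was 0.15 in Tet3-null embryos (95% interval -0.69 to 0.99, adjusted p = 0.718, limma) and -0.25 in wild-type embryos (-1.09 to 0.60, adjusted p = 0.549, limma), intervals that leave room for changes of either sign.

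**Figure D2:**
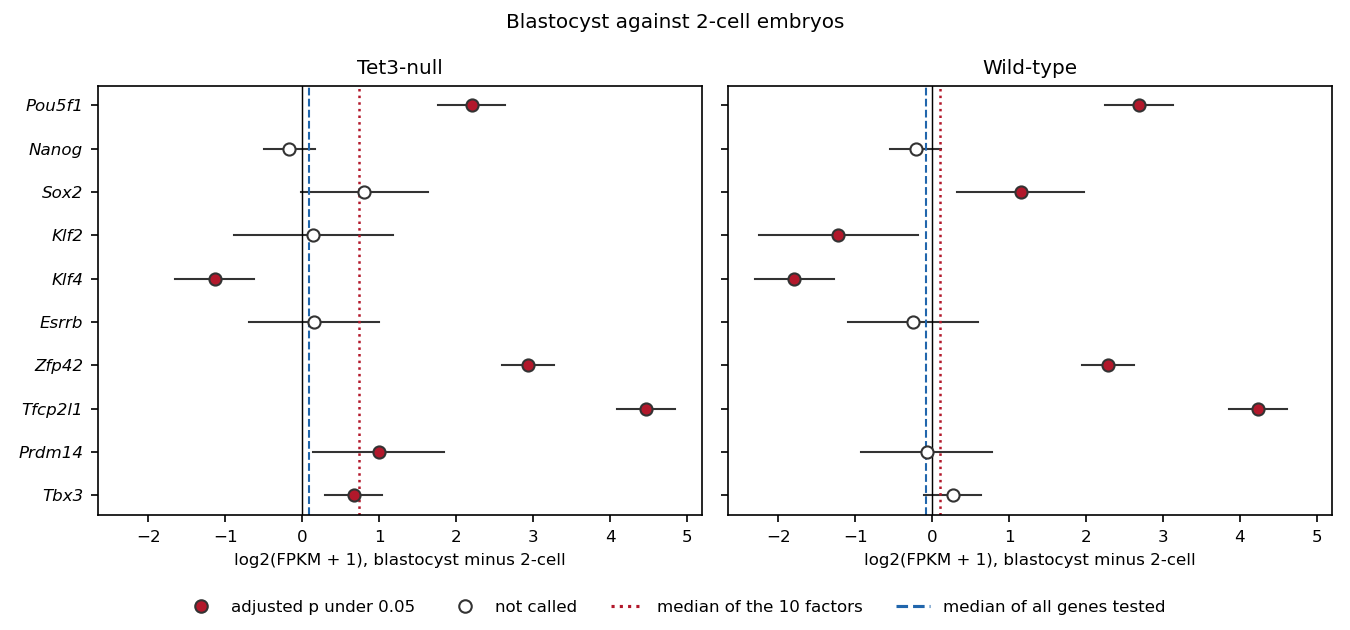
Change of each factor from the 2-cell stage to the blastocyst, as log2(FPKM + 1) in blastocysts minus 2-cell embryos (horizontal axis), in Tet3-null embryos (left) and wild-type embryos (right); points are limma estimates from 2 libraries a group, lines are 95% intervals, and filled points passed an adjusted p of 0.05. Tfcp2l1 lies farthest to the right in both panels, at 4.46 in Tet3-null and 4.24 in wild-type embryos, and Klf4 farthest to the left in the Tet3-null panel and in the wild-type panel.

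At the 2-cell stage the loss of Tet3 from the oocyte was accompanied by a lower Zfp42 level, and no other factor passed the test. Zfp42 had 28.1 and 24.8 FPKM in Tet3-null embryos, against 42.3 and 50.8 FPKM in wild-type embryos. Both Tet3-null libraries lay below both wild-type libraries. The mean fell to 26.5 ± 2.34 FPKM in Tet3-null embryos, against 46.5 ± 5.99 FPKM in wild-type embryos, a ratio of 0.569 (log2 change -0.79, SE 0.14, adjusted p = 0.0435, limma). In this comparison 1 of 10 factors was called, where 2.72% of all genes tested were, and 2.1% were called lower. The call sits close to the threshold. Zfp42 was lower in Tet3-null embryos in all 15 alternatives, with a log2 change of -0.52 to -0.92. It missed the threshold with median-of-ratios scaling (-0.52, adjusted p = 0.0950), quantile normalization (-0.66, adjusted p = 0.0646), with the replicate number as a block (-0.79, adjusted p = 0.0812) and when the 2-cell libraries were fitted alone (adjusted p = 0.376). It also missed without Tet3-null 2-cell replicate 2 (0.0607), wild-type 2-cell replicate 1 (0.0936), wild-type 2-cell replicate 2 (0.146), Tet3-null blastocyst replicate 1 or 2 (0.120 each), wild-type blastocyst replicate 1 (0.119) or wild-type blastocyst replicate 2 (0.118). Among the fits that left out a library, only that without Tet3-null 2-cell replicate 1 kept the call. That fit called far more of all genes tested than the main fit did.

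Klf2 had the largest difference by size. It had 8.47 and 8.67 FPKM in Tet3-null 2-cell embryos, against 21.6 and 19.3 FPKM in wild-type 2-cell embryos, a ratio of 0.419. The groups did not overlap, and the log2 change of -1.16 had a 95% interval of -2.2 to -0.13, but the adjusted p was 0.171 (limma). The replicates at this stage lay close together (SD 0.143 FPKM in Tet3-null and 1.63 FPKM in wild-type embryos). Klf2 was called in none of the 15 alternatives (adjusted p = 0.108 to 0.376), among them the fits without either Tet3-null blastocyst library (0.108 each) and the 2-cell libraries alone (0.376). Klf2 and Zfp42 were the 2 factors with an unadjusted p under 0.05, where 23.7% of all genes had one.

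The other factors fell on both sides. Pou5f1 was higher in Tet3-null 2-cell embryos, at 17.1 and 22.4 FPKM, against 13.0 and 15.5 FPKM in wild-type embryos, without overlap. Its log2 change was 0.43 (SE 0.19, adjusted p = 0.213, limma), and it was 0.62 without Tet3-null 2-cell replicate 1. Sox2 likewise lay at 2.09 FPKM in both Tet3-null libraries, against 0.752 and 1.15 FPKM in wild-type embryos (log2 change 0.67, 95% interval -0.15 to 1.49, adjusted p = 0.289, limma). Klf4 (log2 change -0.39, adjusted p = 0.307), Tfcp2l1 (-0.23, 0.401) and Prdm14 (-0.65, 0.316) lay lower in Tet3-null embryos without overlap and without passing limma's test. Tbx3 (-0.11, adjusted p = 0.713) was also lower without overlap, but its sign turned with scaling, to 0.15 with median-of-ratios factors and 0.08 with quantile normalization. Nanog (0.16, 95% interval -0.17 to 0.49) and Esrrb (-0.36, -1.20 to 0.49) overlapped. In all, the groups did not overlap for 2 factors higher in Tet3-null embryos, where this held for 12.6% of all genes, and for 6 lower, where it held for 34.9%. The median log2 change was -0.30 over the factors and -0.17 over all genes. With median-of-ratios scaling the median was -0.09 over the factors and 0.01 over all genes, and with quantile normalization it was -0.08 over the factors and 0.00 over all genes.

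In blastocysts none of the 10 factors was called between the genotypes by limma, where 0.0664% of all genes were, and none had an unadjusted p under 0.05, where 5.46% of all genes did. Zfp42 had 208 and 208 FPKM in Tet3-null blastocysts, against 230 and 229 FPKM in wild-type blastocysts, without overlap but with a log2 change of -0.14 (95% interval -0.47 to 0.20). Nanog had 145 and 138 FPKM in Tet3-null blastocysts, against 114 and 132 FPKM in wild-type blastocysts (0.20, -0.13 to 0.53). Tbx3 had 28.2 and 28.3 FPKM in Tet3-null blastocysts, against 25.2 and 20.9 FPKM in wild-type blastocysts (0.29, -0.08 to 0.66). These 3 were the factors without overlap, where 44.2% of all genes had none. Pou5f1 (-0.06, 95% interval -0.50 to 0.38) and Tfcp2l1 (-0.01, -0.38 to 0.37) had the estimates nearest to 0 together with Esrrb (0.04, -0.80 to 0.88). For Sox2 (0.33, -0.50 to 1.15), Klf2 (0.20, -0.83 to 1.24), Klf4 (0.26, -0.25 to 0.76) and Prdm14 (0.41, -0.44 to 1.26) the intervals were wider. Tet3-null blastocyst replicate 2 was above replicate 1 for Sox2, Klf2, Klf4 and Prdm14, by ratios of 2.57, 3.11, 1.56 and 1.5. Without replicate 2 the genotype difference was -0.22 for Sox2, -0.54 for Klf2 and -0.04 for Klf4. The median change of the 10 factors, 0.20 beside -0.02 for all genes, was then -0.02, and it was -0.04 without wild-type blastocyst replicate 2.

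**Figure D3:**
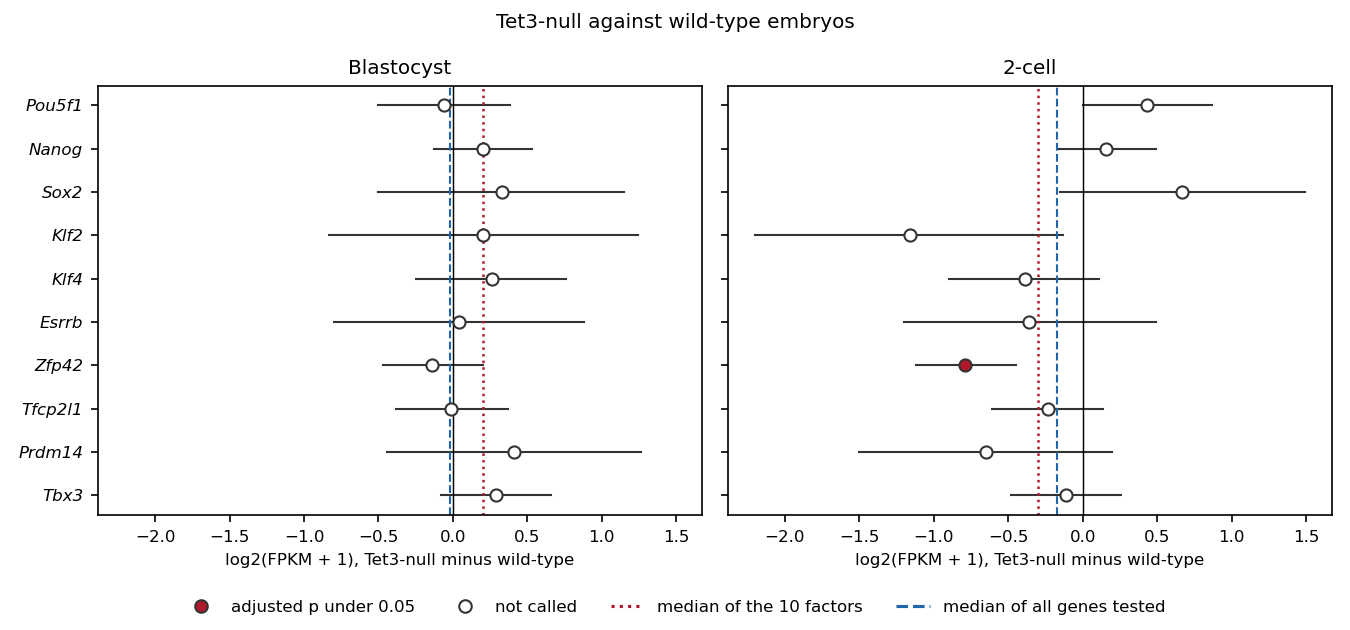
Difference of each factor between Tet3-null and wild-type embryos, as log2(FPKM + 1) in Tet3-null minus wild-type (horizontal axis), in blastocysts (left) and 2-cell embryos (right); points are limma estimates from 2 libraries a group, lines are 95% intervals, and the filled point passed an adjusted p of 0.05. Zfp42 at the 2-cell stage, at -0.79, is the filled point, and every interval in the blastocyst panel includes 0.

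Whether the genotype difference changed with stage was tested as an interaction, which is also the difference between the stage changes of the 2 genotypes. No factor was called by limma, where 0.14% of all genes were, and Zfp42 alone had an unadjusted p under 0.05, where 14.4% of all genes did. The Zfp42 difference was -0.14 in blastocysts and -0.79 in 2-cell embryos, an interaction of 0.65 (95% interval 0.17 to 1.12, unadjusted p = 0.0144, adjusted p = 0.243). Leaving out a library moved this interaction between 0.52 and 0.78. Sox2, Klf2, Prdm14 and Tbx3 passed the stage test in a single genotype each, but their interactions did not pass (adjusted p = 0.787, 0.371, 0.394 and 0.448), so their stage changes are not shown to differ. The stage, genotype and interaction comparisons share libraries and are not independent of each other.

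The factors belong to gene families whose other members were measured too. Of the 17 Klf genes 14 were tested. In wild-type embryos 4 of them were higher in blastocysts (Klf5, Klf6, Klf13 and Klf15) and 6 lower (Klf2, Klf4, Klf7, Klf11, Klf16 and Klf17), shares near the 35.8% higher and 38.4% lower of all genes tested. Klf17 had 1.23 and 1.10 FPKM in Tet3-null blastocysts, 0.657 and 0.716 FPKM in wild-type blastocysts, 99.8 and 90.2 FPKM in Tet3-null 2-cell embryos and 129 and 111 FPKM in wild-type 2-cell embryos. It was the Klf gene with the highest mean at the 2-cell stage in both genotypes, and it fell in wild-type embryos by 6.16 on the log2 scale (adjusted p = 3.61e-07, limma). Klf5, which acts beside Klf2 and Klf4 in mouse embryonic stem cells, had 80.9 and 94.2 FPKM in Tet3-null blastocysts, 142 and 119 FPKM in wild-type blastocysts, 11.0 and 15.7 FPKM in Tet3-null 2-cell embryos and 14.1 and 16.2 FPKM in wild-type 2-cell embryos. It had the highest mean of the family in blastocysts of both genotypes (log2 stage change 3.03 in wild-type embryos, adjusted p = 1.41e-05, limma). Its lower level in Tet3-null blastocysts was not called (-0.57, adjusted p = 0.860, limma). Klf13 was the family member called between the genotypes, at 0.784 and 0.627 FPKM in Tet3-null 2-cell embryos against 2.62 and 2.40 FPKM in wild-type 2-cell embryos (-1.04, adjusted p = 0.0460, limma).

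**Figure D4:**
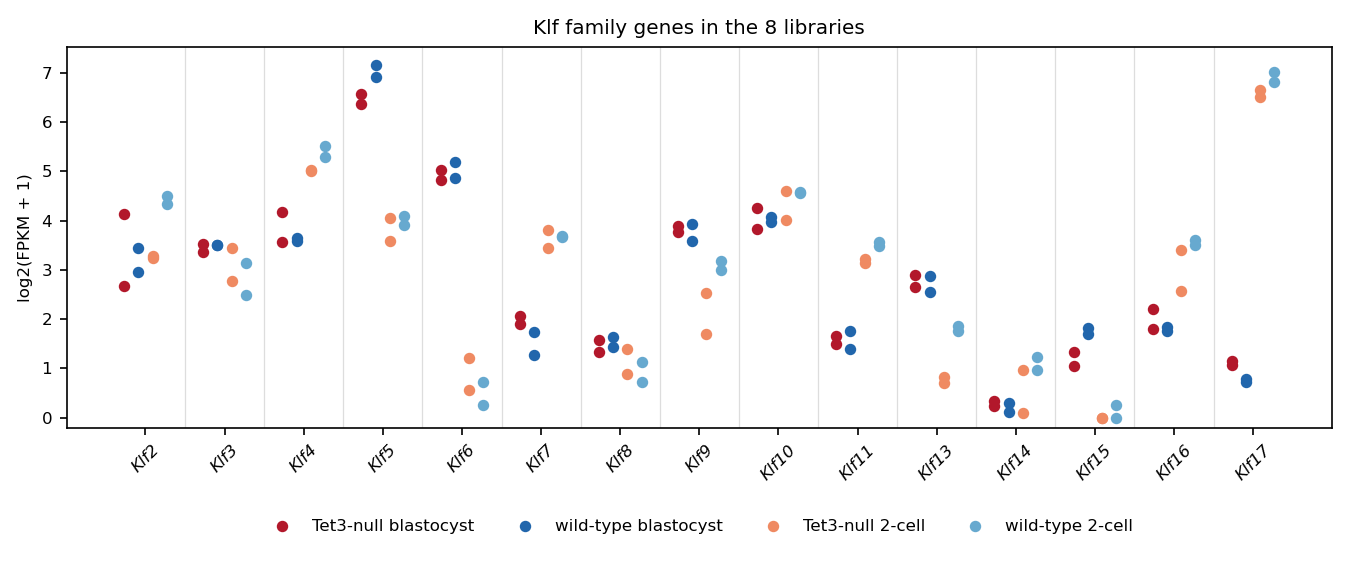
Level of the 15 Klf family genes with a group mean of at least 1 FPKM, as log2(FPKM + 1) per library (vertical axis), with colours for the 4 groups. Klf4 and Klf17 are lower and Klf5 and Klf6 higher in the blastocyst libraries than in the 2-cell libraries of both genotypes.

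In the Sox family Sox15, a relative of Sox2, was the most abundant gene in every group, with 72.5 and 76.0 FPKM in Tet3-null blastocysts, 60.0 and 44.2 FPKM in wild-type blastocysts, 20.7 and 14.8 FPKM in Tet3-null 2-cell embryos and 19.5 and 16.1 FPKM in wild-type 2-cell embryos. Sox2 was thus a minor Sox transcript in these pools. Sox15 rose with stage in wild-type embryos (log2 change 1.49, adjusted p = 0.000663, limma), as did Sox13 (3.05, adjusted p = 1.5e-05) and Sox21 (1.82, adjusted p = 0.000207), while Sox11 (-2.42), Sox30 (-1.79) and Sox12 (-1.72) fell. In the POU family the leading gene differed by stage. Pou4f1, best known from sensory neurons, had 0.166 and 0.129 FPKM in Tet3-null blastocysts, 0.0415 and 0.126 FPKM in wild-type blastocysts, 32.7 and 39.7 FPKM in Tet3-null 2-cell embryos and 47.0 and 38.0 FPKM in wild-type 2-cell embryos. Pou5f1 was the second at the 2-cell stage and the first in blastocysts.

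For Zfp42, which arose from a copy of Yy1, the relatives moved oppositely. Yy2 had 1.94 and 2.82 FPKM in Tet3-null blastocysts, 2.66 and 2.43 FPKM in wild-type blastocysts, 89.8 and 67.4 FPKM in Tet3-null 2-cell embryos and 72.5 and 61.1 FPKM in wild-type 2-cell embryos, and it fell with stage in wild-type embryos (-4.25, adjusted p = 4.00e-06, limma), as did Yy1 (-1.05, adjusted p = 0.000447). At the 2-cell stage Yy1 and Yy2 were not called between the genotypes, with log2 changes of 0.35 and 0.22 (adjusted p = 0.200 and 0.559, limma). Tfcp2, the close relative of Tfcp2l1, fell with stage in wild-type embryos (-2.62, adjusted p = 0.000126, limma), with 1.91 and 2.14 FPKM in Tet3-null blastocysts, 2.06 and 2.67 FPKM in wild-type blastocysts, 21.5 and 15.7 FPKM in Tet3-null 2-cell embryos and 14.9 and 25.5 FPKM in wild-type 2-cell embryos. Around Esrrb, Esrra rose (1.27, adjusted p = 0.000332, limma) and Esrrg fell (-3.07, adjusted p = 1.41e-05, limma) with stage in wild-type embryos. Tbx3 had the highest mean of the T-box genes in all 4 groups, and Prdm14 was outranked by Prdm2 and Prdm4 in all 4.

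Around the factors, 30 other genes of the naive network were followed, of which 27 were tested. In wild-type embryos 10 were higher in blastocysts and 9 lower, where 35.8% of all genes were higher and 38.4% lower. In Tet3-null embryos 15 were higher and 7 lower, where 38.9% of all genes were higher and 35.1% lower. Tdgf1, a Nodal coreceptor, had 35.5 and 46.4 FPKM in Tet3-null blastocysts, 44.5 and 36.3 FPKM in wild-type blastocysts, 0.600 and 0.649 FPKM in Tet3-null 2-cell embryos and 0.598 and 0.491 FPKM in wild-type 2-cell embryos. Tcl1, an Akt coactivator, went the other way, with 7.60 and 8.72 FPKM in Tet3-null blastocysts, 5.40 and 8.91 FPKM in wild-type blastocysts, 4231 and 4418 FPKM in Tet3-null 2-cell embryos and 4070 and 2941 FPKM in wild-type 2-cell embryos. Fgf4, the growth factor secreted by the epiblast, had 2.21 and 3.24 FPKM in Tet3-null blastocysts, 4.11 and 2.09 FPKM in wild-type blastocysts, 28.1 and 15.1 FPKM in Tet3-null 2-cell embryos and 56.9 and 58.9 FPKM in wild-type 2-cell embryos. Its 2-cell levels did not overlap between the genotypes, but the difference was not called (log2 change -1.44, SE 0.35, adjusted p = 0.0735, limma). Of the 27, none was called between the genotypes by limma at either stage, and 7 at the 2-cell stage and 2 in blastocysts had an unadjusted p under 0.05, where 23.7% and 5.46% of all genes did. Their median log2 change at the 2-cell stage was -0.35, beside -0.17 for all genes, a value that scaling takes to about 0 as given above. In Tet3-null embryos 13 were lower and 2 higher without overlap, where 34.9% of all genes were lower and 12.6% higher. In blastocysts the median was -0.03, beside -0.02 for all genes.

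Upstream, 25 genes of LIF, Wnt and BMP signalling were tested, and 9 were higher and 8 lower in wild-type blastocysts, where 35.8% of all genes were higher and 38.4% lower. Stat3, which carries the LIF signal to Klf4, Tfcp2l1 and other targets in mouse embryonic stem cells, had 13.3 and 15.1 FPKM in Tet3-null blastocysts, 22.1 and 17.8 FPKM in wild-type blastocysts, 2.12 and 1.44 FPKM in Tet3-null 2-cell embryos and 2.52 and 2.87 FPKM in wild-type 2-cell embryos (log2 stage change 2.50 in wild-type embryos, adjusted p = 3.18e-05, limma). The kinase Jak2 fell (-5.05, adjusted p = 1.06e-06). The BMP targets split, with Id2 (3.36) and Id3 (2.51) higher and Id1 (-4.42) lower in wild-type blastocysts. Of 30 partners and chromatin cofactors of the factors, 13 rose and 13 fell in wild-type embryos, where 35.8% of all genes rose and 38.4% fell, led by Parp1 (2.45), Trim28 (2.15) and Hcfc1 (1.43), and by Thap11 (-2.59), Rif1 (-2.42) and Zfp281 (-1.98). No gene of these lists was called between the genotypes by limma at either stage. At an unadjusted p under 0.05 there were 3 signalling genes and 6 cofactors at the 2-cell stage, where 23.7% of all genes had one. In blastocysts there were 2 signalling genes and 1 cofactor, where 5.46% of all genes had one. Of 7 tested genes of the formative and primed states, Otx2 (2.64) and Dnmt3b (3.0) rose and Sox11, Lin28b, Pou3f1 and Sox4 fell in wild-type embryos, beside the 35.8% and 38.4% of all genes. None of these 7 was called between the genotypes, and 3 at the 2-cell stage and 0 in blastocysts had an unadjusted p under 0.05, beside 23.7% and 5.46% of all genes.

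Markers of the other blastocyst lineages were set beside the factors, since in whole embryos fewer cells of a type and less RNA per cell cannot be told apart. The marker lists were chosen with earlier results of these data known. Their counts beside those of all genes are therefore descriptive and not independent of those results. Blastocyst libraries carried the stage's markers. Krt18, a trophectoderm keratin, had 2170 and 1985 FPKM in Tet3-null blastocysts, 3138 and 2966 FPKM in wild-type blastocysts, and at most 11.9 FPKM in any 2-cell library. Gata6, a primitive endoderm factor, had 109 and 119 FPKM in Tet3-null blastocysts, 107 and 96.4 FPKM in wild-type blastocysts, and at most 1.98 FPKM at the 2-cell stage. Of the 14 primitive endoderm markers tested, 12 rose with stage in wild-type embryos and 2 fell, Gata4 (log2 change -1.74, adjusted p = 0.00651, limma) and Amn (-1.13, adjusted p = 0.00996, limma). Of the 20 trophectoderm markers, 19 rose with stage in wild-type embryos and none fell. Over all genes tested, 35.8% rose and 38.4% fell in this comparison. The summed level of 20 trophectoderm markers was 4211 and 3843 FPKM in Tet3-null blastocysts, against 6353 and 5987 FPKM in wild-type blastocysts. Krt18 alone held a large part of each of these sums. None of the 20 was called by limma, and 10 had an unadjusted p under 0.05, where 5.46% of all genes did. Without overlap 14 were lower and 1 higher, where 44.2% of all genes did not overlap in either direction, and their median log2 change was -0.49, beside -0.02 for all genes. Summed over 18 primitive endoderm markers the level was 554 and 524 FPKM in Tet3-null blastocysts, against 551 and 496 FPKM in wild-type blastocysts. Dab2 alone gave 310 and 279 FPKM of this in Tet3-null blastocysts and 247 and 244 FPKM in wild-type blastocysts. Of the 14 tested none was called by limma, 3 had an unadjusted p under 0.05, and the median log2 change was -0.21, with 9 lower and 2 higher in Tet3-null embryos without overlap, beside the same values for all genes as above. The share of these lineages in the factors' blastocyst values was not tested. At the 2-cell stage Gata3 was called higher in Tet3-null embryos, and Gata2, Lgals3 and Ptges lower, 4 of the 20 trophectoderm markers, where 2.72% of all genes were called.

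Markers of other cells that could be carried along with embryos were uneven. Those of cumulus and granulosa cells summed to 23.4 and 30.9 FPKM in Tet3-null 2-cell embryos and 41.5 and 33.6 FPKM in wild-type 2-cell embryos, and to 6.94 to 10.9 FPKM in blastocyst libraries, with Amh at 0 in every library. Most of that sum came from Tnfaip6, at 14.4 and 24.0 FPKM in Tet3-null 2-cell embryos and 29.5 and 19.0 FPKM in wild-type 2-cell embryos, and from Amhr2, at 6.19 to 13.3 FPKM over all 8 libraries. Sperm markers summed to 11.9 and 23.4 FPKM in Tet3-null 2-cell embryos and 7.44 and 8.14 FPKM in wild-type 2-cell embryos, and to 5.70 to 7.94 FPKM in blastocyst libraries, with Smcp at 0 throughout. Prm2 had 8.52 and 17.2 FPKM in Tet3-null 2-cell embryos and 2.47 and 4.43 FPKM in wild-type 2-cell embryos (adjusted p = 0.0756, limma). Blood markers summed to 9.02 and 28.8 FPKM in Tet3-null 2-cell embryos, 29.9 and 26.9 FPKM in wild-type 2-cell embryos and 1.21 to 2.68 FPKM in blastocyst libraries, with Hbb-b1 at 0 throughout. Cd52 held most of it, at 8.80 and 28.1 FPKM in Tet3-null 2-cell embryos and 27.6 and 25.3 FPKM in wild-type 2-cell embryos. Tnfaip6 in all 4 of the 2-cell libraries, Cd52 in 3 of them and Prm2 in 1 lay within or above the range of Pou5f1 at that stage, 13.0 to 22.4 FPKM. None of the genes tested from these 3 lists (2, 5 and 2 of them) was called between the genotypes by limma, and 1 of each list at the 2-cell stage had an unadjusted p under 0.05, where 23.7% of all genes did. Their part in the factors' values was not tested.

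**Figure D5:**
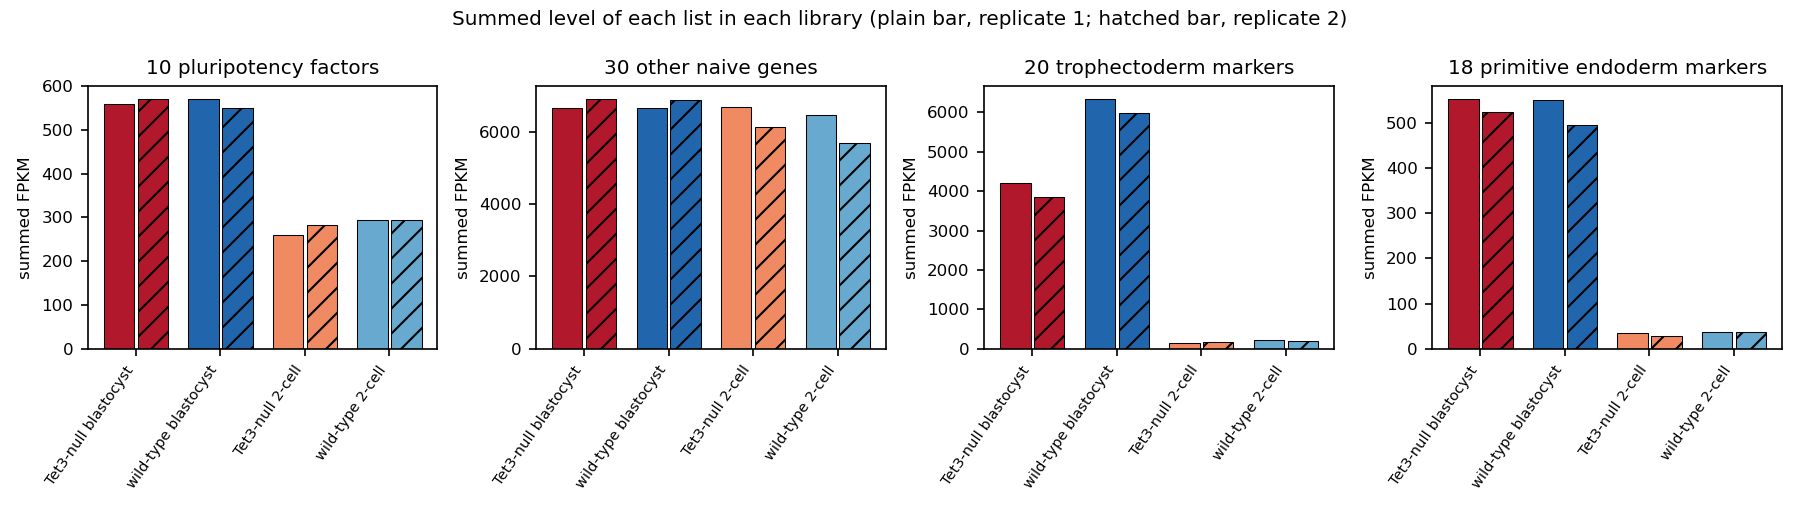
Summed FPKM (vertical axes, linear, from 0) of the 10 factors, 30 other naive genes, 20 trophectoderm markers and 18 primitive endoderm markers in each library, in Tet3-null blastocysts, wild-type blastocysts, Tet3-null 2-cell and wild-type 2-cell embryos; plain bars are replicate 1 and hatched bars replicate 2. The trophectoderm sum is 4211 and 3843 FPKM in Tet3-null blastocysts and 6353 and 5987 FPKM in wild-type blastocysts, while the factors' sums are 549 to 572 FPKM in all 4. A few abundant genes weigh heavily in these sums. In Tet3-null blastocysts Krt18 alone had 2170 and 1985 FPKM, and Zfp42 and Nanog held 36.8% and 25.0% of the factors' sum. Of the naive genes, Dppa5a had 5018 and 5182 FPKM there, where all 30 summed to 6655 and 6926 FPKM.

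The genes most like each factor over the 8 libraries were ranked by the root mean square difference of log2(FPKM + 1) after subtracting each gene's mean. For Pou5f1 they were Gcn1l1 (0.111), Eef1b2 (0.131) and Rpl36a (0.137). For Nanog they were 0610007C21Rik (0.0691), Mpv17 (0.0739) and Sos2 (0.0831). Zfp42 was closest to Ssr2 (0.0913), Ywhab (0.0952) and Atp5h (0.0958), and Tfcp2l1 to Prss32 (0.0686), Ndufc2 (0.105) and Cryz (0.138). The nearest to Klf4 were Hspa1b (0.105), Pmfbp1 (0.114) and Helb (0.128), and to Tbx3 Gm10324 (0.0770), Rapgef2 (0.0916) and Ctcfl (0.0936). Esrrb was closest to Clcc1 (0.126), and Sox2 (Telo2, 0.209), Klf2 (B230312A22Rik, 0.246) and Prdm14 (Ttc9, 0.193) were farther from their nearest genes. The factors were also compared with each other. A nearest gene was sought among all genes tested and a nearest factor among the factors only. The distances between factors therefore cannot be set against those above. The closest of the pairs were Prdm14 with Tbx3 (0.313), Nanog with Esrrb (0.340) and Nanog with Tbx3 (0.375), while Pou5f1 was 0.465 from Zfp42, and Tfcp2l1 lay 0.900 from its nearest factor, Zfp42.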

How the data were processed

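RNA-seq was done on 8 pooled embryo libraries, 2 in each of 4 groups. Per the labels' protocols, embryos were lysed directly, cDNA was amplified with a SMARTer low-input kit and libraries were made with an NEBNext DNA kit, which does not mark strand. The authors deposited FPKM per gene symbol, for which the submitters' processing notes name Cufflinks 2.2.0, TopHat2 2.0.10 with Bowtie2 2.1.0, and the build mm9. Annotation, settings and the handling of shared reads were not given in the sources used here, and read depth is unknown, so values carry no counting interval.

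From the deposited FPKM, genes reaching 1 FPKM in 2 or more libraries (13549) were taken to log2(FPKM + 1) and fitted with limma 3.58.1 (R 4.3.3): 4 group means over all 8 libraries, trended empirical Bayes (4 residual and 3.07 prior degrees of freedom), two-sided tests, Benjamini-Hochberg adjustment over all genes tested, and calls at an adjusted p of 0.05. The fit was run on simulated data in which a gene had the same spread in all 4 groups, so that run cannot test unequal spread. The fit itself takes a common spread per gene for all 4 groups, whereas replicates differed most in Tet3-null 2-cell embryos (median ratio 1.42). The effect of such unequal spread on the p-values was not tested. Log2 changes on this scale understate those of low genes, so ratios of mean FPKM stand beside some. An exact permutation test of 2 libraries against 2 cannot go below p = 0.333 and was not used. Alternatives were a pseudocount of 0.1, no filter, median-of-ratios, quantile and equal-sum scaling, replicate number as a block, the compared libraries alone, leaving out each library in turn, and Nanogpd added to Nanog. The factors and gene lists were chosen with earlier results of these data known. Named genes were all 10 factors in every comparison; from the other lists, genes called between the genotypes and the 3 largest changes called in each direction between stages in wild-type embryos; family genes with a group mean of at least 1 FPKM; the 3 nearest genes per factor; and Tet3. Sox2ot, Nanogpd and Prm2 were added after their values were seen. Promoter windows and motif matches were read with Python 3.11.15 from a RefSeq table.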

Additional observations from a re-analysis of the deposited data

How the results depend on the processing

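Pou5f1, Klf4, Zfp42 and Tfcp2l1 kept their stage calls in both genotypes under every alternative. In the 2-cell genotype comparison the count of factors called, 1, became 0 with median-of-ratios scaling, quantile normalization, the replicate block and the 2-cell libraries alone, and ranged from 0 to 2 when a library was left out (2, Pou5f1 and Zfp42, without Tet3-null 2-cell replicate 1). The same omission, which leaves 1 library in that group, also raised the count for the interaction. The share of all genes called for the interaction in that fit is not given here. Over all genes, 368 calls at the 2-cell stage became 149 with median-of-ratios scaling, 198 with quantile normalization, 31 with the block and 3 with the 2-cell libraries alone, and 3453 without Tet3-null 2-cell replicate 1. The cause was not tested. No strong shift shared across genes followed the replicate number: deviations from the group means correlated across genes at -0.0756 to 0.0184. This cannot show whether libraries with the same number shared females or a collection. With the replicate block the Zfp42 change at the 2-cell stage stayed at -0.79 with an adjusted p of 0.0812, and the Prdm14 stage change in Tet3-null embryos stayed at 0.99 with 0.0550. The factors' median change at the 2-cell stage, -0.30, was -0.09 with median-of-ratios scaling and -0.08 with quantile normalization. In blastocysts it ranged from -0.04 to 0.23 when a library was left out. The median stage change was 0.25 in Tet3-null and -0.42 in wild-type embryos after rescaling to the same total, and 0.46 (without Tet3-null blastocyst replicate 2) to 1.04 (without replicate 1) in Tet3-null and 0.01 (without wild-type blastocyst replicate 1) to 0.39 (without replicate 2) in wild-type embryos. These signs turned, none of them of a called value. With median-of-ratios and quantile scaling, Tbx3 between the 2-cell genotypes was 0.15 and 0.08, Tfcp2l1 between the blastocyst genotypes was 0.05 and 0.01, and the Nanog interaction was -0.18 and -0.02. After rescaling to the same total the stage changes of Klf2 (-0.39) and Esrrb (-0.31) in Tet3-null and of Tbx3 (-0.32) in wild-type embryos turned, as did Prdm14 in wild-type embryos with quantile normalization (0.12) and Nanog in Tet3-null embryos with Nanogpd added (0.02). Leaving out a library turned Esrrb (-0.88 to 0.17) at the 2-cell stage. Between blastocyst genotypes it turned Sox2 (-0.22 to 0.88), Klf2 (-0.54 to 0.94), Klf4 (-0.04 to 0.55), Esrrb (-0.09 to 0.17), Tfcp2l1 (-0.12 to 0.11), Pou5f1 (-0.20 to 0.08), Prdm14 (-0.03 to 0.86). It turned the stage changes of Esrrb (-0.37 to 0.67) and Klf2 (-0.59 to 0.88) in Tet3-null and of Esrrb (-0.52 to 0.03) and Prdm14 (-0.51 to 0.37) in wild-type embryos, and the interactions of Nanog (-0.06 to 0.14), Esrrb (-0.12 to 0.92) and Sox2 (-0.89 to 0.20). With 2 libraries a group and no read totals, Klf2, Esrrb, Prdm14 and Sox2 were the least precise factors. The SE of their genotype difference was 0.44 for Klf2, 0.36 for Esrrb and Prdm14 and 0.35 for Sox2. Replicate ratios reached 3.11 for Klf2, in Tet3-null blastocysts, and 2.62 for Esrrb, in Tet3-null 2-cell embryos. A lone library left in a group was assumed to vary like the others.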
